A study of Mus musculus with 6 samples.

Results

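Genes of retinoic acid synthesis, binding and breakdown were compared between wound and skin stromal cells of mice. They are 9 of the 19267 genes in the authors' deposited table, taken by their Entrez identifiers: Rbp4 (19662), Stra6 (20897), Aldh1a1 (11668), Aldh1a2 (19378), Aldh1a3 (56847), Dhrs3 (20148), Crabp1 (12903), Crabp2 (12904) and Cyp26b1 (232174). All 9 were among the 16689 genes tested, each through 1 probe that was the same on both array designs. Retinoic acid is made from vitamin A inside cells and controls transcription through nuclear receptors. Retinol travels in blood bound to RBP4 and can enter cells through STRA6, its membrane receptor. Retinol dehydrogenases turn it into retinal, retinaldehyde dehydrogenases of the ALDH1A family turn retinal into retinoic acid, the CRABP proteins bind retinoic acid in the cytoplasm, and CYP26 enzymes break it down. In skin these molecules are known for their part in epidermal renewal, hair growth and repair.

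RNA came from mice carrying an SMA-GFP transgene, a green fluorescent reporter under the smooth muscle actin promoter. Wound cells were sorted 7 days after injury as SMA-GFP+++, that is with a high reporter signal, and are labelled myofibroblasts. Skin cells came from dermis, were sorted as SMA-GFP+ with a low signal, and are labelled fibroblast-like. Both populations were CD45- and CD31-, a sort meant to leave out white blood cells and endothelial cells. Some markers of both were still measured, as given below. Each population was measured on 3 1-colour arrays, replicates 1 and 2 on array design 026655 and 1 array on design 028005, which is called replicate 3 only as a name. Strain, sex, age and pooling of animals are not given in the sources used here.

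No wound cells with a low reporter signal and no skin cells with a high one were measured, so reporter level and injury cannot be told apart. In sorted populations, fewer cells of a type and less RNA per cell cannot be told apart either. Whether replicates are separate animals is not stated in the labels. The p-values therefore cover the spread between the arrays at hand, which may be technical, and 3 arrays a group limit the precision. Between 64.4% and 72.6% of spots were well above background on each array and 0 were saturated. The labels were checked by Acta2, the gene of smooth muscle actin, which was higher in wound cells by 4.71 on the log2 scale (SE 0.16, limma adjusted p = 5.24e-05). Signals of 8 fibroblast markers were summed, relative to the 75th percentile of each array. The sums spanned 1034 to 3379 in wound cells and 1193 to 4119 in skin cells. Among these markers, Col1a2 and Dcn had the highest mean log2 signals over the 6 arrays. By the rule given below, Pdgfra was lower in wound cells (log2 difference -1.30, SE 0.15, limma adjusted p = 0.0011). The other 7 fibroblast markers did not pass that rule.

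Values below are log2 signals relative to the 75th percentile of all probes on the array, so that 0 stands for a probe at that percentile. They are given for replicates 1, 2 and 3 in that order. Levels are read only within a gene, since probes differ in brightness for reasons other than RNA amount. Wound was compared with skin within array design by limma, with the design as a term, and a gene was called at a Benjamini-Hochberg adjusted p under 0.05 over all genes tested. By that rule 6 of the 9 genes differed, 3 higher (Stra6, Aldh1a3 and Rbp4) and 3 lower in wound cells (Cyp26b1, Aldh1a1 and Aldh1a2). Stra6 and Aldh1a2 passed the filter on dim probes only through the group where they are brighter. Their p-values are therefore no support apart from that filter. Over all genes tested, 34.1% were called, 18.5% as higher and 15.6% as lower. For 5 of the 9 genes the called difference was at least 4-fold, as it was for 8.16% of all genes tested. The median absolute log2 difference was 2.15 over the 9 genes and 0.42 over all genes tested. The genes were chosen with earlier results of these data known, so these counts describe them and are no test of the group.

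The 3 genes with the largest differences are shown with their promoters, as the 250 bases before the annotated start in RefSeq on build GRCm38.p6. They are printed to give the sequence in front of the transcripts whose amounts differed most. Of the 9 genes, 7 had entries, with 14 windows in all; Aldh1a3 and Crabp2 had none. Each window was searched on both strands for 4 half-sites of the retinoic acid receptors, AGGTCA, then GGGTCA, then AGTTCA, and last GGTTCA, and for TATAAA, a core promoter motif. Capitals mark each match. Stra6 has 4 annotated windows and the first is given, at chr9:58128838-58129087 on the plus strand, with no match. The Cyp26b1 window lies at chr6:84593811-84594060 on the minus strand, and its TATAAA starts 139 bases before the annotated start. Aldh1a1 has 2 windows, and the one given was picked because it holds a half-site, while the other holds none. It lies at chr19:20601718-20601967 on the plus strand. Its match is TGACCC, the reverse complement of GGGTCA, starting 49 bases before the start.
Stra6: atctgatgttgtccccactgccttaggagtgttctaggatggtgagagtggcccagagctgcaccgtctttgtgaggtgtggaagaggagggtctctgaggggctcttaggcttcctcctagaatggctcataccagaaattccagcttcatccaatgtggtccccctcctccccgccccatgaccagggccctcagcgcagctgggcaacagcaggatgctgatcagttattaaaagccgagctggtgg
Cyp26b1: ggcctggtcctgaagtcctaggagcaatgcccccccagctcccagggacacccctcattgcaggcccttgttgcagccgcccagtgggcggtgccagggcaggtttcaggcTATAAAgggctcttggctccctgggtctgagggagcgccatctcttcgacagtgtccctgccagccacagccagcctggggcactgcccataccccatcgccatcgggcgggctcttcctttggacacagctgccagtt
Aldh1a1: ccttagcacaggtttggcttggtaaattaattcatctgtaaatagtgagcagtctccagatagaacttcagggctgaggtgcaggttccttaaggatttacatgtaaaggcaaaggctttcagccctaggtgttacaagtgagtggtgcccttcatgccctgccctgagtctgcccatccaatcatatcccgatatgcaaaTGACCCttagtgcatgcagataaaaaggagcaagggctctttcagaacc
At least 1 of the 4 half-sites was found in 2 of the 14 windows, 1 each of Aldh1a1 and Rbp4, and in 38.6% of 32851 windows of all genes. TATAAA was found in 2 of the 14, 1 each of Cyp26b1 and Rbp4, and in 12.4% of all. Pairs of half-sites in the same orientation, 1, 2 or 5 bases apart, the spacings that receptor dimers are known to bind, were found in 0 of the 14 windows and in 0.164%, 0.174% and 0.0883% of all. These matches describe letters in these windows only and say nothing of binding.

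Stra6 and Rbp4, of retinol uptake and transport, were higher in wound cells. Stra6, the receptor that passes retinol from RBP4 into cells, measured 0.41, 1.47 and 2.02 in wound cells, against -5.71, -5.45 and -3.77 in skin cells. Every wound array lay far above every skin array, and the groups did not overlap on either design. The log2 difference was 6.27 (SE 0.32, 95% interval 5.50 to 7.04), which is 77.3-fold (limma adjusted p = 9.54e-05). Within design 026655 it was 6.51 and in the pair on design 028005 it was 5.79. The skin signal was close to the floor of the arrays. Stra6 had processed intensities of 998, 1707 and 2107 in wound cells, against 13.6, 17.3 and 33.6 in skin cells, where 2 of 3 arrays put it well above background and the lowest such signals were 11.5, 16.8 and 11.2. The size of the fold change moved with the background correction, and normexp correction with an offset of 50 gave a log2 difference of 4.18 (limma adjusted p = 7.44e-07).

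Rbp4, which carries retinol in plasma and is known to be made mainly in liver and fat, measured 2.38, 1.84 and 3.04 in wound cells, against 0.08, -0.67 and 1.42 in skin cells. The groups did not overlap on either design. The log2 difference was 2.15 (SE 0.29, 95% interval 1.44 to 2.86), or 4.43-fold (limma adjusted p = 0.00243). It was 2.41 within design 026655 and 1.63 in the pair on design 028005. Among the 15020 genes well above background on all 6 arrays, which leave out Stra6 and Aldh1a2, 350 had a more positive difference. The 7 adipocyte markers summed to 10.9 to 26.7 in wound cells and 1.72 to 5.88 in skin cells, a sum led by Fabp4, the fatty acid binding protein of fat cells. Fabp4 was the 1 adipocyte marker called (higher, log2 difference 2.76), Adipoq and Pparg did not pass the threshold, and Cidec was well above background on 0 of 6 arrays. The part of fat cells in the Rbp4 difference was not tested.

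**Figure D1:**
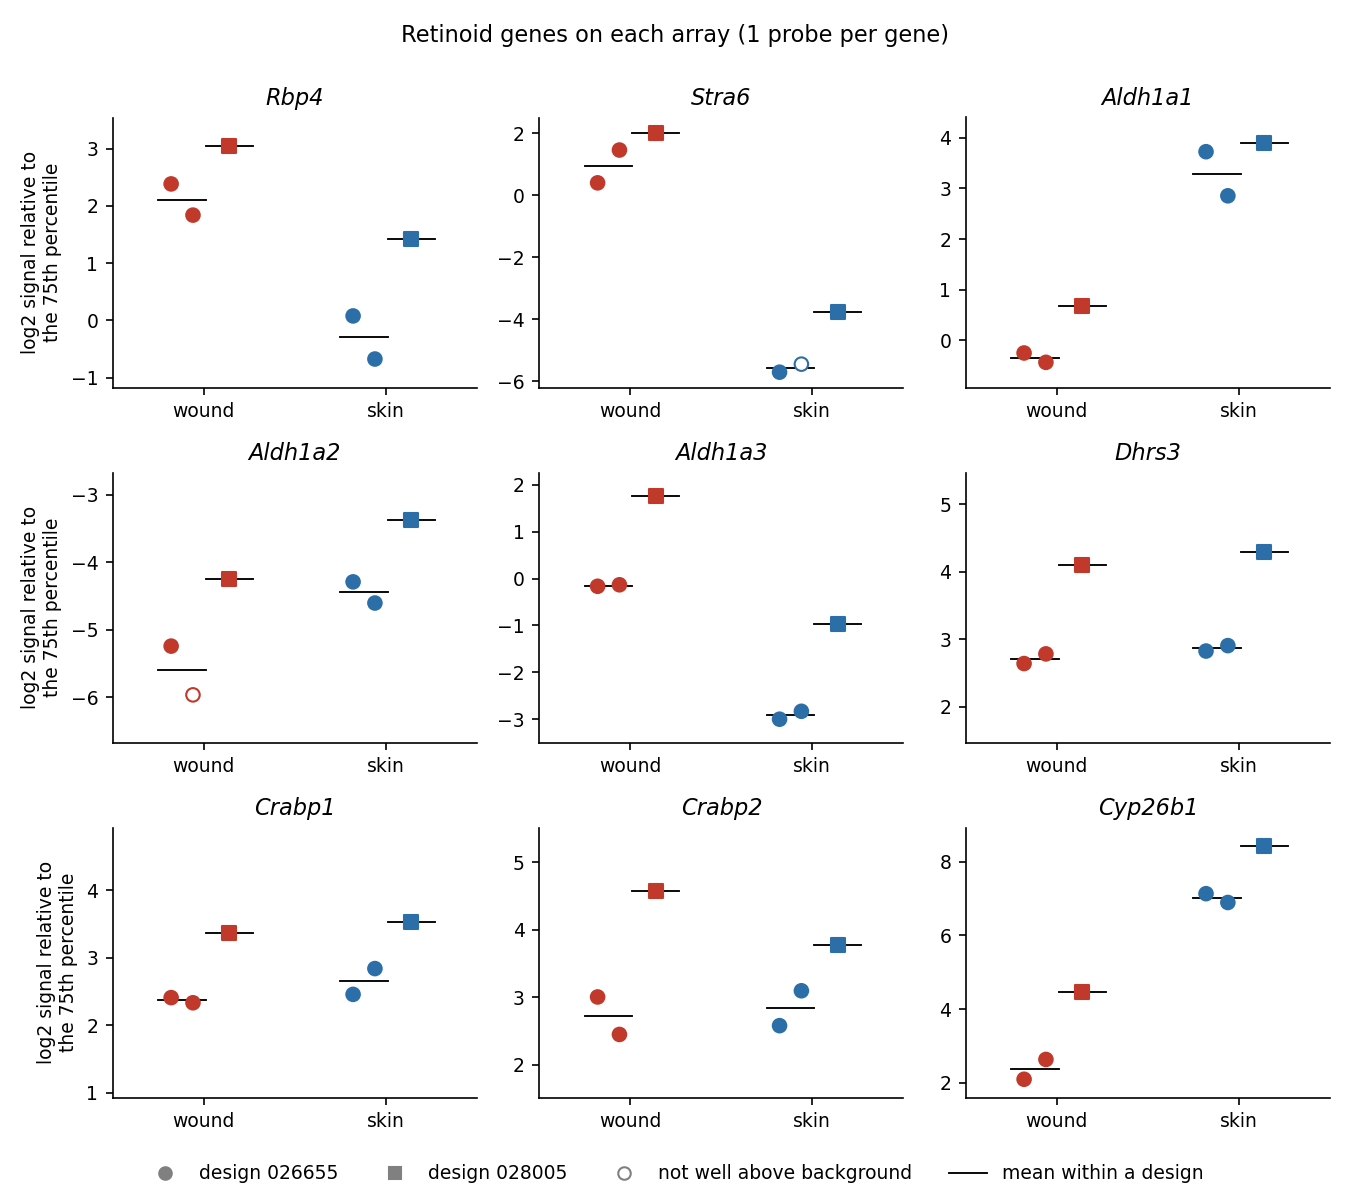
Log2 signal of the 9 retinoid genes on each array, relative to the 75th percentile of that array. Wound arrays stand left and skin arrays right in each panel, circles are design 026655, squares design 028005, open symbols were not well above background, and bars are means within a design; each panel has its own range. Stra6, Aldh1a3 and Rbp4 lie higher in wound cells, Cyp26b1, Aldh1a1 and Aldh1a2 lower, and Crabp1, Crabp2 and Dhrs3 lie at about the same height in both.

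The 3 retinaldehyde dehydrogenases, which perform the step from retinal to retinoic acid, did not move together. Aldh1a3 was higher in wound cells, with -0.17, -0.13 and 1.76, against -3.00, -2.83 and -0.98 in skin cells. Replicates on one design lay within a narrow band, and the groups stood well apart on both designs. The log2 difference was 2.75 (SE 0.14, 95% interval 2.41 to 3.10), or 6.75-fold (limma adjusted p = 9.93e-05), and the 3 pairs of arrays gave 2.83, 2.70 and 2.73. Of the 15020 genes well above background on all 6 arrays, 191 had a more positive difference.

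Aldh1a1 was lower in wound cells, with -0.25, -0.43 and 0.67, against 3.72, 2.85 and 3.90 in skin cells. Every wound array lay below every skin array. The log2 difference was -3.49 (SE 0.26, 95% interval -4.12 to -2.87), or 11.3-fold lower (limma adjusted p = 0.000258), with -3.63 within design 026655 and -3.22 in the pair on design 028005. A more negative difference was seen for 112 of these 15020 genes. Aldh1a7, a close mouse paralog, was not well above background on any wound array (0 of 3) and was on 2 of 3 skin arrays, so it was not tested. How far the Aldh1a1 probe reads RNA of that paralog is uncertain.

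Aldh1a2, the enzyme known from the mouse embryo as the main early source of retinoic acid, was dim everywhere. It measured -5.24, -5.97 and -4.25 in wound cells, against -4.29, -4.61 and -3.38 in skin cells, and the groups did not overlap within a design. Processed intensities were 19.9, 9.89 and 27.4 in wound cells, of which wound replicate 2 was not well above background, against 36.2, 31.0 and 44.1 in skin cells. The log2 difference was -1.06 (SE 0.23, 95% interval -1.63 to -0.49), or 2.08-fold lower (limma adjusted p = 0.0156), with -1.16 within design 026655 and -0.87 in the pair on design 028005. The call was lost with normexp background correction, where the log2 difference was -0.31 (adjusted p = 0.124), and without skin replicate 1, where it was -0.94 (adjusted p = 0.066). Over the alternatives run, its adjusted p spanned 0.00905 to 0.44.

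Dhrs3, which returns retinal to retinol and so limits synthesis, measured 2.64, 2.78 and 4.10 in wound cells, against 2.83, 2.91 and 4.30 in skin cells. Wound arrays were slightly below skin arrays in each design. The log2 difference of -0.17 did not pass the threshold (95% interval -0.51 to 0.18, limma adjusted p = 0.403). The interval does not show that the levels were equal.

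The cytoplasmic retinoic acid binding proteins did not pass the threshold either. Crabp1 measured 2.41, 2.33 and 3.36 in wound cells, against 2.46, 2.84 and 3.52 in skin cells, with a log2 difference of -0.24 (95% interval -0.64 to 0.16, limma adjusted p = 0.308). The wound arrays lay lower in each design, by less than the distance between the 2 skin arrays of design 026655. Crabp2, which is known to hand retinoic acid to its receptors, measured 3.00, 2.45 and 4.58 in wound cells, against 2.58, 3.10 and 3.77 in skin cells. It was the 1 gene of the 9 whose groups overlapped within a design. For the other 8 the groups did not overlap within either design, a pattern that 57.3% of all genes tested showed, 31.9% with wound higher and 25.4% with wound lower. The log2 difference of Crabp2 was 0.20 (95% interval -0.49 to 0.88, limma adjusted p = 0.63), and its sign differed between designs, with -0.11 within design 026655 and 0.81 in the pair on design 028005.

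Cyp26b1, the hydroxylase that clears retinoic acid in many tissues of the embryo and in skin, had the largest decrease of the 9 genes. It measured 2.09, 2.63 and 4.47 in wound cells, against 7.13, 6.89 and 8.43 in skin cells. The groups stood far apart on both designs, and the skin signals were bright, with processed intensities of 3207, 3824 and 11515 in wound cells, against 99701, 89984 and 158683 in skin cells. The log2 difference was -4.43 (SE 0.23, 95% interval -4.99 to -3.86), or 21.5-fold lower (limma adjusted p = 0.000102). It was -4.65 within design 026655 and -3.97 in the pair on design 028005. A more negative difference was seen for 49 of the 15020 genes well above background on all 6 arrays.

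**Figure D2:**
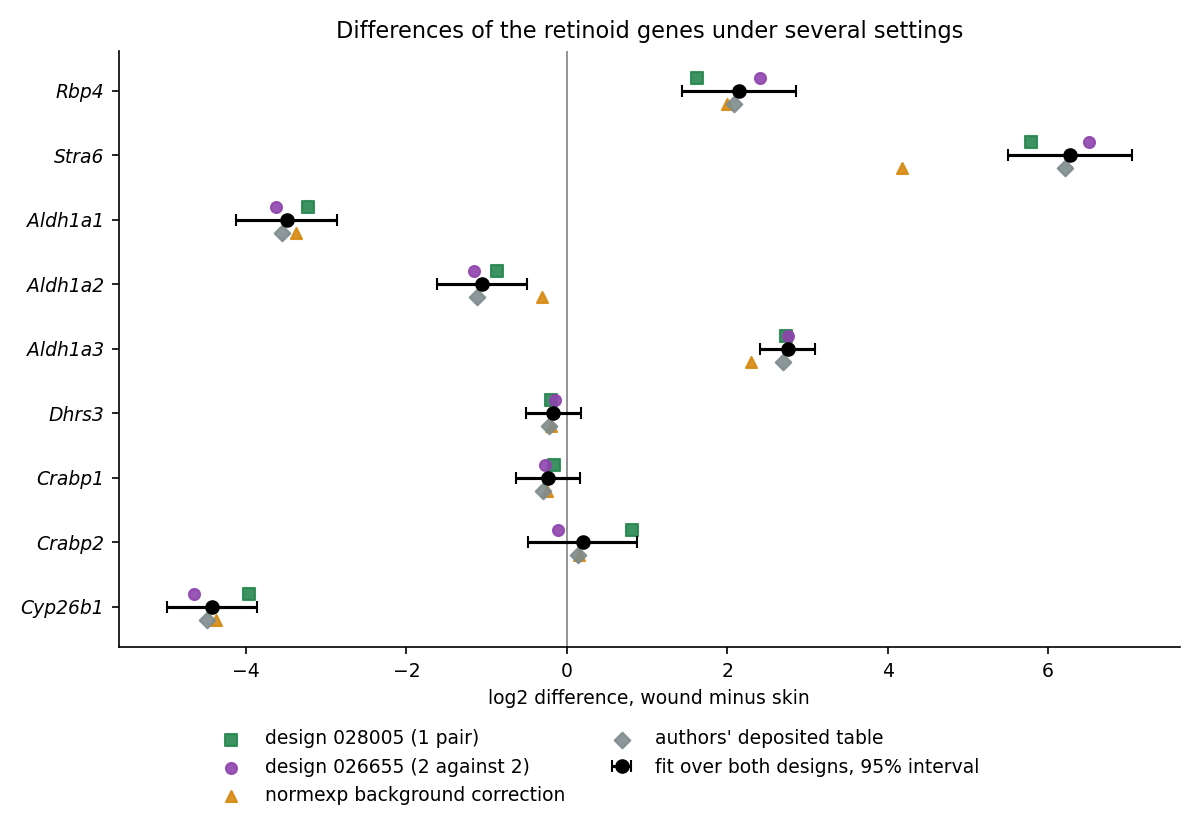
Log2 differences of the 9 retinoid genes, wound minus skin. Black points are the fit over both designs with 95% intervals, purple circles design 026655, green squares the pair on design 028005, orange triangles normexp background correction and grey diamonds the authors' deposited table; Stra6 ranges from 4.18 to 6.51, Aldh1a2 moves to -0.31 with normexp, and Crabp2 lies on both sides of 0.

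Markers of other cell types moved with these differences. The 12 keratinocyte markers, with Trp63 and Krt10 highest in mean log2 signal over the 6 arrays, summed to 4.28 to 10.8 in wound cells and 24.1 to 53.3 in skin cells. Of 11 tested, 10 were lower in wound cells and Trp63 did not pass the threshold. Krt15, Krt1, Krt17, Epcam, Dsp and Cdh1 passed the filter on dim probes only through skin cells. Their calls are therefore no support apart from that filter. Counts of marker calls stand beside 15.6% lower and 18.5% higher over all genes tested. Krt1 and Cdh1 were well above background on 0 of 3 wound arrays and on all skin arrays, and Dsg3 on 0 of 6 arrays. The 10 markers of dermal papilla and follicle dermis summed to 8.08 to 20.1 in wound cells and 28.8 to 67.6 in skin cells. Of these markers, 6 were called lower and 1 higher. Sox2, Corin and Crym, all called lower, passed the filter on dim probes only through skin cells, so the same limit holds. Fgf7 and Prdm1, highest in mean log2 signal over the 6 arrays, did not pass the threshold. Wif1, a secreted Wnt inhibitor with the highest signal of the list on every skin array, was 62.3-fold lower in wound cells (log2 difference -5.96, SE 0.68, limma adjusted p = 0.0012). The size differed between designs, with -7.08 within design 026655 and -3.72 in the pair on design 028005. Sox2, which marks part of the dermal papillae in mice, was well above background on 0 of 3 wound arrays and 3 of 3 skin arrays. The part of either cell type in the lower Cyp26b1, Aldh1a1 and Aldh1a2 of wound cells was not tested.

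Mural cell markers moved the other way. The 9 mural markers summed to 76.2 to 203 in wound cells and 19.8 to 45.1 in skin cells. Of the 9, 7 were called higher, against 18.5% of all genes tested. Pdgfrb and Notch3 were highest in mean log2 signal over the 6 arrays; Notch3 was 11.0-fold higher in wound cells and Pdgfrb did not pass the threshold. Rgs5, a pericyte marker with the highest signal of the list on every wound array, was 27.5-fold higher in wound cells (log2 difference 4.78, SE 0.26, limma adjusted p = 0.00011). Mural cells, which surround vessels, are known to express smooth muscle actin. The part of such cells in the higher Stra6, Aldh1a3 and Rbp4 of wound cells was not tested. Schwann cell markers were lower in wound cells for 4 of 6. They summed to 1.52 to 3.81 in wound cells and 2.87 to 9.23 in skin cells, without overlap within either design. For melanocyte markers 2 of 4 tested were lower. Of 10 leukocyte markers tested, Itgax and S100a9 were higher in wound cells, 49.0-fold and 10.3-fold. Csf1r and S100a8 were lower, 1.90-fold and 3.21-fold, and 6 did not pass. Of 7 endothelial markers tested, Emcn, Lyve1 and Tek were higher, 5.99-fold, 4.81-fold and 2.12-fold, and 4 did not pass. Itgax, S100a9, Emcn and Lyve1 were well above background on only 1 of 3 skin arrays, and S100a8 on 2 of 3 wound arrays. These genes passed the filter on dim probes only through the group where they are brighter. Pecam1, the gene of CD31, and Itgam were well above background on all 6 arrays. The part of such cells in the retinoid differences was not tested.

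**Figure D3:**
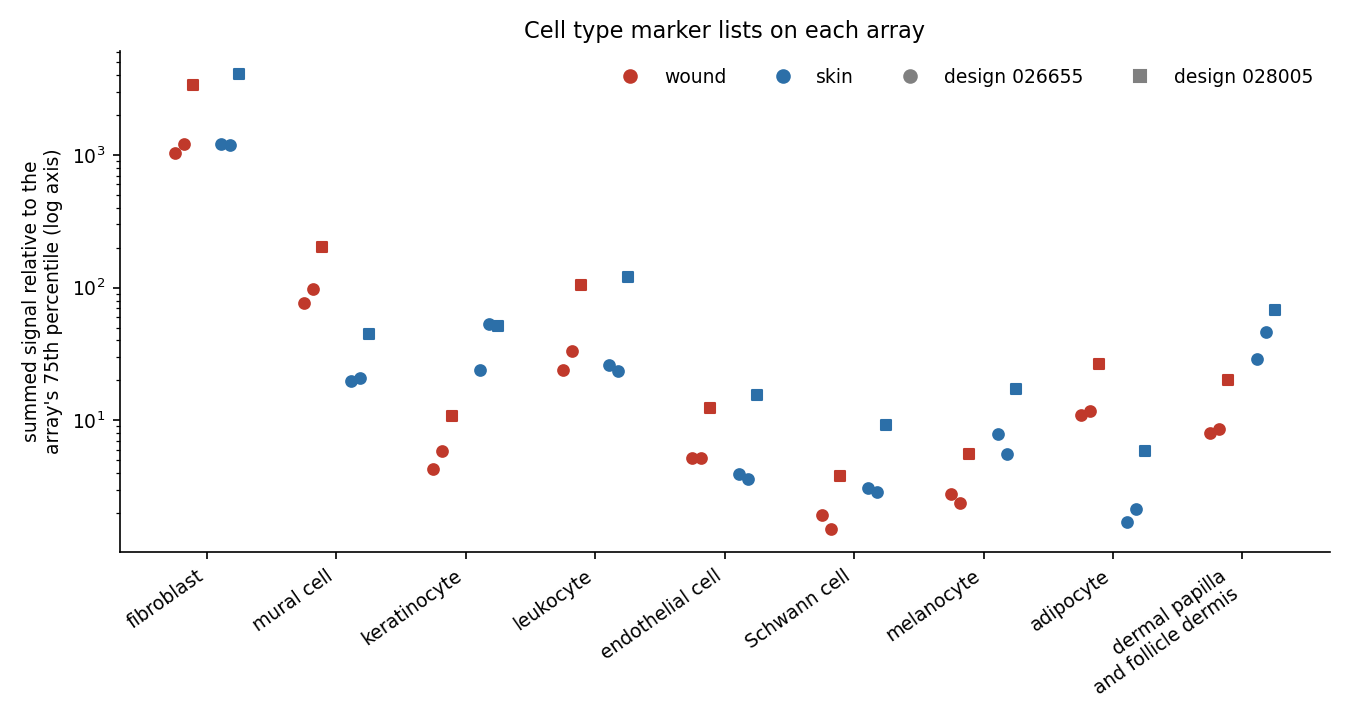
Summed signals of 9 cell type marker lists on each array, relative to the 75th percentile of that array, on a log axis. Wound arrays (red) stand left of skin arrays (blue), circles are design 026655 and squares design 028005; within each design the keratinocyte, follicle, Schwann and melanocyte sums are lower in wound cells and the mural and adipocyte sums higher.

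The other genes of the pathway were read from 6 lists of 80 different genes, of which 61 were tested. Of these, 14 were higher, 15 lower and 32 did not pass the threshold, against 34.1% called among all genes. In the authors' deposited table the split was 10 higher and 17 lower of 60 tested. Over all genes there it was 2493 higher and 2711 lower of 16545 tested. The median log2 difference over the 61 genes was -0.08, and over all genes tested it was 0.04.

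Among 27 enzymes of synthesis and storage, 19 were tested, 5 were higher, 3 lower and 11 did not pass. Over all genes tested, 18.5% were higher and 15.6% lower. The largest decreases were in Adh7 and Adh1, alcohol dehydrogenases that can oxidise retinol to retinal. Adh7 measured -3.43, -3.66 and -1.87 in wound cells, against 1.53, 1.36 and 2.51 in skin cells (log2 difference -4.78, SE 0.19, limma adjusted p = 6.55e-05), and -3.97 with normexp correction. Adh1 measured -0.71, -0.76 and 1.29 in wound cells, against 3.95, 3.48 and 5.01 in skin cells (log2 difference -4.21, SE 0.22, limma adjusted p = 0.000103). For both genes all wound arrays lay below all skin arrays. Rdh10, the dehydrogenase known to control retinal supply in the mouse embryo, was 2.49-fold higher in wound cells, with 1.04, 0.86 and 1.70, against -0.22, -0.13 and 0.01 in skin cells (log2 difference 1.32, SE 0.18, limma adjusted p = 0.0023). Dhrs9, a short-chain dehydrogenase, was well above background on only 1 of 3 skin arrays. It passed the filter on dim probes only through wound cells. Its log2 difference was 1.79 (SE 0.50, limma adjusted p = 0.035). It was 2.58 within design 026655 and 0.21 in the pair on design 028005, and 0.26 with normexp correction (adjusted p = 0.23). The Dhrs9 call was lost under 7 of 16 alternatives: normexp, no filter on dim probes (adjusted p = 0.081), a replicate block (adjusted p = 0.054), and leaving out wound replicate 1 or 2 or skin replicate 1 or 2, with log2 differences of 1.42 to 1.71. Lrat, which esterifies retinol for storage, was well above background on 0 of 6 arrays.

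Of 4 other genes linked to breakdown, 2 were tested, 1 was higher and 1 lower. Cyp26a1 was well above background on 1 wound array and 0 skin arrays and Cyp26c1 on 0 of 6 arrays, so Cyp26b1 was the 1 gene of the CYP26 family that was tested. Cyp1b1, a cytochrome P450 with several substrates, was lower in wound cells (log2 difference -0.74, SE 0.15, limma adjusted p = 0.011). Cyp2s1, linked to retinoic acid metabolism in human skin, was higher (log2 difference 0.69, SE 0.20, limma adjusted p = 0.038). The call of Cyp1b1 was lost without skin replicate 1, with a log2 difference of -0.68 (adjusted p = 0.066). That of Cyp2s1 was lost without any one of 5 arrays, wound replicates 1, 2 and 3 and skin replicates 1 and 2, with log2 differences of 0.52 to 0.84, and under 10 of 17 alternatives in all.

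Among 12 carrier and uptake genes, 7 were tested, 2 were higher, 1 lower and 4 did not pass, against 34.1% called over all genes. Fabp5, a fatty acid binding protein reported to bind retinoic acid as well, was 4.20-fold higher in wound cells (log2 difference 2.07, SE 0.19, limma adjusted p = 0.0005). Scarb1, a lipoprotein receptor that also takes up carotenoids, was 2.15-fold lower (log2 difference -1.11, SE 0.19, limma adjusted p = 0.0058).

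All 6 retinoic acid and retinoid X receptor genes were measured. Rarb, a receptor whose own gene is a known target of retinoic acid, measured -0.94, -0.86 and 0.46 in wound cells, against -2.33, -2.62 and -1.39 in skin cells. The groups did not overlap within a design, and Rarb was 3.17-fold higher in wound cells (log2 difference 1.67, SE 0.16, limma adjusted p = 0.00063). A second Rarb probe was higher as well, by 1.17, and the last was well above background on 0 of 3 wound arrays and 2 of 3 skin arrays. The mean of its probes gave 0.47 (adjusted p = 0.087) while the difference in the authors' deposited table was 0.41 (adjusted p = 0.15). Rarg, the main retinoic acid receptor of the epidermis, was lower in wound cells (log2 difference -0.73, SE 0.14, limma adjusted p = 0.0092), a call lost without skin replicate 1 (log2 difference -0.73, adjusted p = 0.054). Rxra, a common dimer partner, was lower by its brighter probe (log2 difference -1.20, SE 0.15, limma adjusted p = 0.0015), while its other probe gave -0.28 and did not pass. Rara had a log2 difference of -0.33 and Rxrb of 0.45, and neither passed the threshold. Rxrg had no settled direction, since its brighter probe gave 0.62 (adjusted p = 0.057) and its other probe -2.65 (adjusted p = 0.00016), with -1.07 in the authors' deposited table.

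Of 10 receptor coregulators 1 was higher, 2 were lower and 7 did not pass, near the 34.1% called over all genes tested. Ncoa3 and Ncoa1, coactivators of nuclear receptors, were lower in wound cells, with log2 differences of -1.12 (SE 0.17, limma adjusted p = 0.0039) and -1.06 (SE 0.17, limma adjusted p = 0.0045). All 3 Ncoa1 probes and both Ncoa3 probes were lower. Nsd1, a histone methyltransferase, had a log2 difference of 0.61 (limma adjusted p = 0.038), a call lost when wound replicate 1 or 2 or skin replicate 1 or 2 was left out, with 0.49 to 0.64, and under 11 of 17 alternatives in all.

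Known retinoic acid target genes moved in both directions. Of 26 listed, 20 were tested, 6 were higher, 6 lower and 8 did not pass, against 34.1% called over all genes. Rarres1, a membrane protein gene induced by retinoids in human skin, measured -3.10, -3.20 and -1.02 in wound cells, against 0.80, 1.42 and 1.75 in skin cells (log2 difference -3.77, SE 0.34, limma adjusted p = 0.00052). Hoxd4, a homeobox gene with a retinoic acid response element in mice, was 4.93-fold lower in wound cells (log2 difference -2.30, SE 0.15, limma adjusted p = 0.00016). Stra8, known for its induction by retinoic acid in germ cells, was well above background on 3 of 3 wound arrays and 0 of 3 skin arrays. Its wound mean of -3.60 lay 4.26-fold above a skin floor of -5.69, which is no firm lower bound. The measured skin mean was -7.30 (limma adjusted p = 0.000102). Stra8 passed the filter on dim probes only through wound cells, so its p-value is no support apart from that filter. Stra8 was dim in both groups, and normexp correction gave a log2 difference of 0.72. Rarb, described above, is also on this list.

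**Figure D4:**
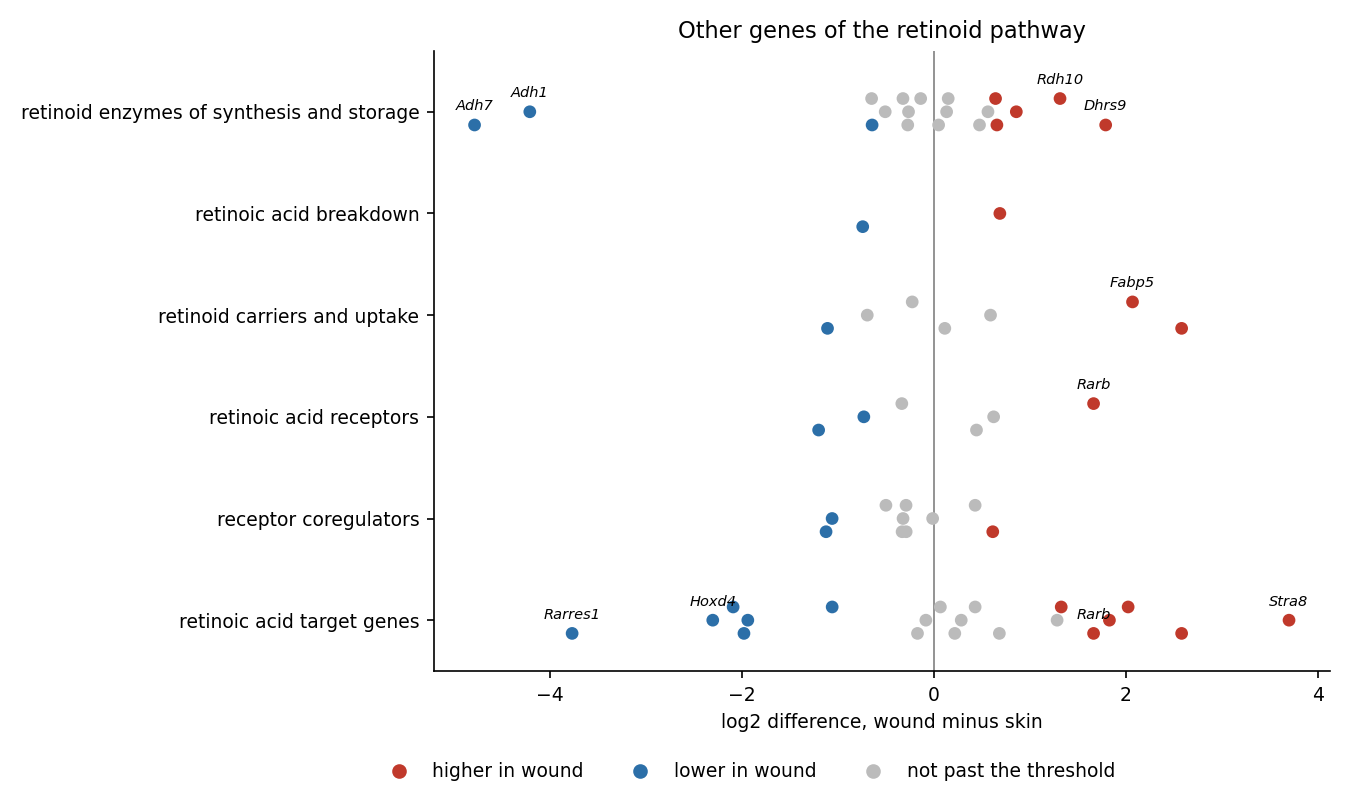
Log2 differences, wound minus skin, of the 61 tested genes of 6 retinoid pathway lists; a gene on 2 lists appears in both. Each point is a gene, red if higher in wound cells, blue if lower and grey if not past an adjusted p of 0.05; Adh7, Adh1 and Rarres1 are farthest left and Stra8 farthest right.

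For Cyp26b1, Aldh1a1 and Aldh1a3, which had the largest differences of the retinoid genes well above background on all 6 arrays, the genes with the most similar pattern were sought among 15792 tested genes with a current symbol. The measure was the root mean square distance of log2 values on the 6 arrays, after centring within each design. Among the 3 closest to Cyp26b1 were Lypd1 at 0.13 and Enpp2, the enzyme that makes lysophosphatidic acid, at 0.15. Their log2 differences were -4.33 and -4.38. Closest to Aldh1a1 were Amy2a5, an amylase, at 0.09, Ces2c, a carboxylesterase, at 0.10 and Jam2, a junctional adhesion molecule, at 0.11, with log2 differences of -3.53, -3.54 and -3.53. Amy2a5 and Ces2c belong to families of near-identical copies, and which copy was read is uncertain. Closest to Aldh1a3 were Tspan12, a tetraspanin, at 0.08, Six4, a homeobox gene, at 0.09 and Gm525 at 0.10, with log2 differences of 2.79, 2.85 and 2.79. These genes were chosen for their likeness, so their differences carry no test. With normexp correction all 8 differences given were smaller in size, down to -1.21 for Lypd1 and 0.50 for Gm525.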

How the data were processed

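Gene expression was measured on 6 Agilent 1-colour arrays of sorted mouse cells, 3 wound and 3 skin. Per the file headers, the authors used Agilent Feature Extraction 10.7.3.1 to extract spot signals, and the probe annotation is of build mm9. Each deposited scanner file gives linear intensity values that this software corrected for background, with no scaling between arrays. A deposited table from the authors gives 1 value per gene and array, made with GeneSpring 14.5 from the 2 designs, as the design text says. Its scale is not stated and was taken as log2, with the direction of the scanner values; its 75th percentiles are 0 and its column medians are -0.28, -0.27 and -0.23 for wound replicates 1, 2 and 3 and -0.21, -0.25 and -0.25 for skin. In that deposited table the 2 log2 values of a gene on design 028005 sum to -0.48 for all 19267 genes, so levels there were centred per gene within the design and the table was used only for differences. The design text names a human array beside a whole-genome one, while all samples are labelled mouse and the probes were named as mouse genes. How that table combines probes is not stated.

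Control spots and outlier spots were left out, spots of a probe were averaged as log2 processed signals, and the 75th percentile of the array was subtracted. Probes were named through the authors' table and otherwise by RefSeq accession, with gene names from assembly GRCm38.p6; the files carry no column of gene names. Of 22944 genes on both designs, 16689 were tested because the brightest probe was well above background throughout wound or skin (3 arrays), 888 of them without a current symbol. The brightest probe per design was used and was the same on both for 97.7% of genes. The fit was limma 3.58.1 in R 4.3.3 with array design, which is also slide and scan, as a fixed term, with 3 residual degrees of freedom and 6.25 after moderation. Calls used a Benjamini-Hochberg adjusted p under 0.05. Signal over background limits values near the array floor. Where a group had no array with the probe well above background, the fold is taken against a floor. That floor is the lowest signal of any probe that was, or the probe's own signal if higher. Such a fold depends on the background correction and is no firm lower bound.

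The genes, pathway lists and marker lists were chosen with earlier results of these data known. Named were all 9 genes, all receptors, the 4 called genes with the largest differences of each other pathway list, the 2 brightest genes of each marker list, and 3 genes most alike in pattern to each of 3 genes; other names were chosen after their values were seen. Some genes that the rule selects are not reported here. Rarres3 was on the target list and was not matched to a current mouse symbol. Alternatives changed the background correction (normexp on median signals, since mean signals are not among the files' columns), scaling, probe choice, filter on dim probes, design term, threshold and arrays included. Tables used Python 3.11.15 and pandas 2.3.3, and figures matplotlib 3.10.9.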

Additional observations from a re-analysis of the deposited data

How the results depend on the processing

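Of the 9 retinoid genes, Stra6, Aldh1a3, Rbp4, Cyp26b1 and Aldh1a1 kept their direction and call under every alternative that tested them. Crabp1 and Dhrs3 kept theirs without passing the threshold. Each of the 9 has 1 probe, so alternatives that change the probe choice could not move their differences. Leaving out wound or skin replicate 3 gives the difference of design 026655 alone, so these settings do not count separately. The count of 6 called was 5 with normexp, with no term for the array design and at an adjusted p under 0.01, each time without Aldh1a2, and 4 of 7 tested where genes had to be well above background on all 6 arrays, which leaves out Stra6 and Aldh1a2. Leaving out 1 array gave 5 to 6 called, 21 to 26 called on the pathway lists, against 29, and 3740 to 4923 over all genes, against 5688; the lowest of each came without skin replicate 1. Without the design term, 13 pathway genes and 1753 of all genes were called, and at an adjusted p under 0.01, 3190 of all genes. Crabp2 turned to -0.11 on design 026655 alone, which is the same as leaving out wound or skin replicate 3. Rxrg turned to -1.01 with the mean of its probes, -1.07 in the authors' deposited table and -2.65 by its other probe. With 1 array left out, Crabp2 spanned -0.11 to 0.44. The cause of these changes was not tested. Wound and skin arrays share replicate numbers that the labels do not tie to an animal or batch, and deviations of same-numbered arrays on design 026655 correlated at 0.15 across genes. With a replicate block, 6 of the 9 genes were called, 26 pathway genes and 5593 of all genes.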

Other observations

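Further genes of the pathway lists were called, and these were named after their values were seen. Among retinoic acid targets, Hic1, a transcriptional repressor, was 3.56-fold higher in wound cells and Rai14 was 2.51-fold higher. Rarres2, which encodes the chemoattractant chemerin, was 3.83-fold lower, Ccnd1, the cell cycle gene of cyclin D1, was 3.94-fold lower and Meis1 was 2.08-fold lower in wound cells. Ripply3 was well above background on 0 of 3 wound arrays and 3 of 3 skin arrays. Its skin mean lay 2.53-fold above the floor of the wound arrays, which is no firm lower bound. Among enzymes, Rdh5, Rdh12 and Dgat1 were 1.56-fold, 1.82-fold and 1.58-fold higher in wound cells (limma adjusted p = 0.025, 0.032 and 0.014). The log2 difference of Rdh12 was 0.61 within design 026655 and 1.36 in the pair on design 028005. Dhrs7 was 1.56-fold lower, just under the threshold (limma adjusted p = 0.0498), and did not pass in a fit over probes (adjusted p = 0.060). How these enzyme calls fare under the alternatives is not reported here.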
